A study of Rattus norvegicus with 36 samples.

Results

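The response of the mammary gland of Cop (Copenhagen) rats to N-nitroso-N-methylurea (NMU) was measured 6 h after treatment. Its members are the 3 arrays titled as Cop 6 h NMU and the 3 titled as Cop 6 h control, 6 of the 36 arrays of the study, and the description runs over all probe sets tested on them. The study hybridised total RNA of whole mammary glands from Cop and F344 rats, treated at 55 days of age with NMU or saline vehicle and collected after 6 h, 1 d or 30 d, to Affymetrix rat arrays, in 12 groups of 3 arrays. Both groups of 6 arrays described here are Cop glands collected at 6 h from rats treated at 55 days, without a genetic change, and they differ in NMU against saline. The F344 glands at 6 h and the Cop glands at 1 d, with 3 NMU and 3 saline arrays each, serve as comparisons and share no array with the 6. The labels call the replicates biological without saying that each is a separate animal. The p-values thus measure the spread between arrays within a group, which may be partly technical. That spread was pooled over all 12 groups of the study. The sources used here state neither the dose of NMU nor the time of day of collection.

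NMU is a short-lived alkylating agent that methylates DNA bases, and Mgmt takes the methyl group off methylated guanine without cutting the strand. The rat mammary gland at this age is a tree of epithelial ducts within a fat pad, so whole-gland RNA comes from adipocytes, fibroblasts, vessels and leukocytes as well as from epithelium. Adipocytes make fatty acids from glucose under the transcription factors Srebf1 and Mlxipl, and switch to burning fatty acids when fuel is short. Cop rats are known to resist mammary carcinogens and F344 rats to be susceptible.

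Values are log2 expression values per probe set, and changes are NMU minus control on that scale, so that 1 unit is a factor of 2. The medians of the 6 arrays lay between 5.711 and 5.766. Among NMU arrays, replicates 2 and 3 lay closest to each other (root mean square log2 difference over probe sets 0.232), against 0.325 and 0.36 for NMU 1 with each of them, and the control pairs differed by 0.269 to 0.34. Markers of the labelled tissue were well expressed: the luminal keratin Krt18 read 9.87 to 10.31 over the 6 arrays, the epithelial adhesion molecule Epcam 10.41 to 10.88 and the adipocyte hormone Adipoq 11.89 to 12.19. None of 26 tested luminal epithelial markers passed in either direction, and at an unadjusted p under 0.05 none was higher and 2 were lower. A marker list's score on an array averages, over the list's genes, how far the log2 value lies from that gene's study-wide mean. The luminal score was 0.337, 0.348 and 0.074 on control 1 to 3 and 0.313, -0.040 and -0.048 on NMU 1 to 3, so the arms overlapped.

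Other cell types did differ in their marker scores between the 6 arrays. The T and NK cell score was 0.933, 0.510 and 0.787 on the control arrays and -0.039, -1.11 and -1.11 on the NMU arrays. The skeletal muscle score was -0.970, -2.63 and -0.928 on the control arrays and -0.538, 0.556 and 0.592 on the NMU arrays, although none of its 34 tested genes passed (median change 1.99; at an unadjusted p under 0.05 3 were higher and none lower). For neutrophils it was 0.302, 0.398 and 0.295 in controls and 2.11, 1.48 and 1.41 after NMU, although the list's Lcn2 (0.02) and Hdc (0.10) overlapped between the arms. For B and plasma cells the score was 0.458, 0.400 and 0.732 against 0.002, -0.513 and -0.512. None of these scores overlapped between the arms, and NMU 1 lay nearer to the controls than NMU 2 and 3 in lymphocyte and muscle scores. The adipocyte, macrophage, mast cell, fibroblast, erythroid and Schwann cell scores did not overlap either. In bulk RNA, fewer cells of a type and less RNA per cell cannot be told apart.

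After NMU, 777 probe sets were higher (3.74% of the 20749 tested) and 587 were lower (2.83%), at a limma adjusted p under 0.05. Changes ran from -4.36 to 3.59, with a median size of 0.778 among the called, and 246 rises and 173 falls passed 1 on the log2 scale. Of the 1364 called (6.57%), 1348 had every NMU array on one side of every control array, a separation that 15.2% of all tested probe sets showed upward and 14.5% downward. With 1 probe set a gene, 539 of 11509 genes rose (4.68%) and 379 fell (3.29%), and the median change over all genes was near 0 (-9.874e-05). The counts moved with single arrays: 375 higher and 279 lower without control 1, 384 and 286 without NMU 2, 453 and 279 without NMU 3, 371 lower without control 2 and 498 higher without control 3. With the 6 arrays fitted alone, 1176 were higher and 965 lower. With the T and NK cell score as a covariate 393 were higher and 273 lower, and 31.1% of the calls were kept, and with the muscle score 504 and 343, with 59.9% kept. Calls lost under either covariate, or without an array, are given beside the genes named below.

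**Figure D1:**
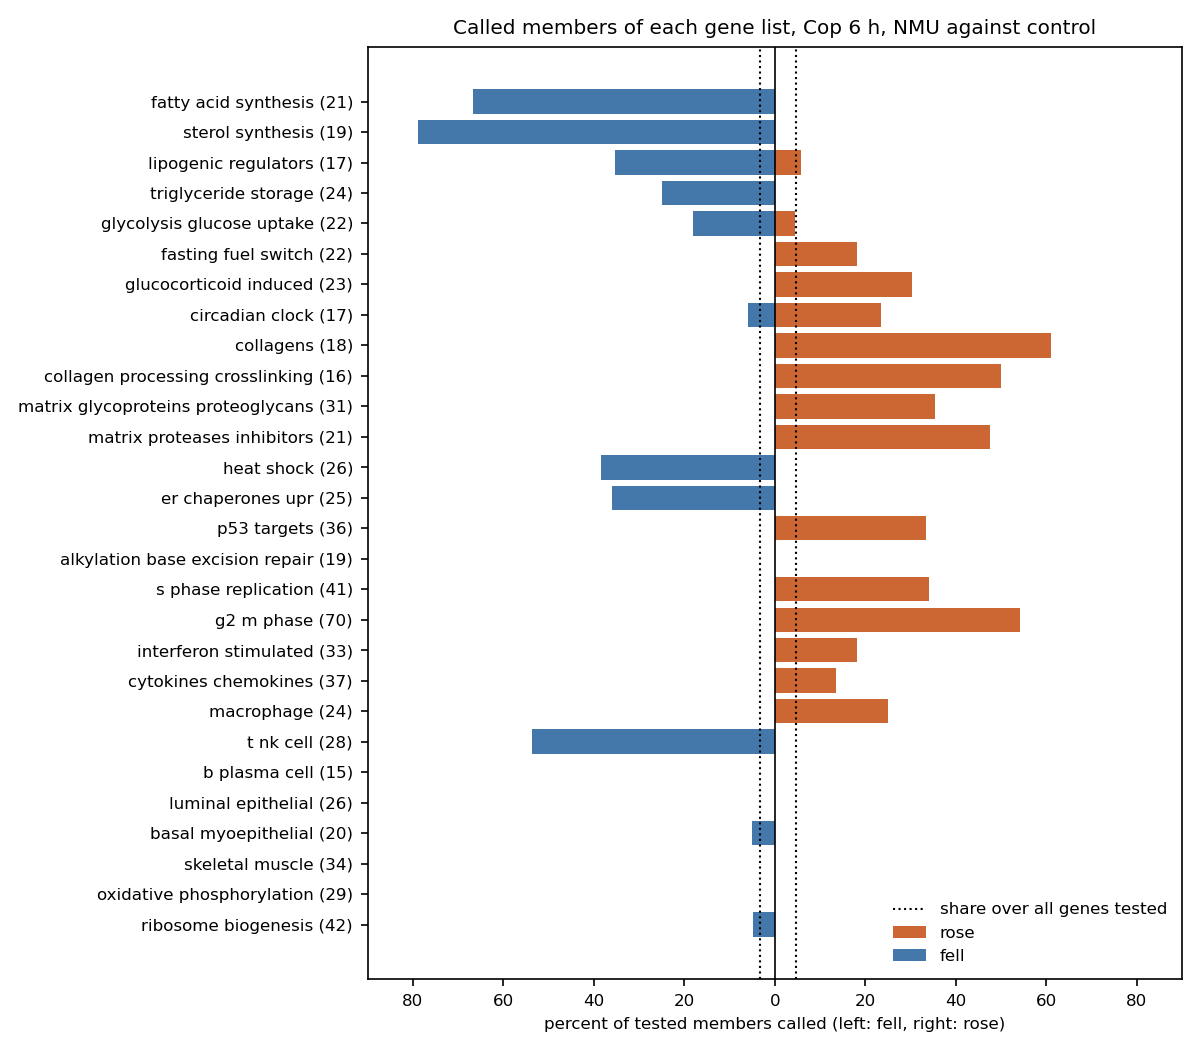
Share of tested members of each gene list called higher (right) or lower (left) after NMU in Cop at 6 h, in percent of members tested. The dotted lines mark the shares over all genes, 4.68% higher and 3.29% lower. Sterol and fatty acid synthesis stand at 78.9% and 66.7% lower, collagens at 61.1% and the G2 and M phase list at 54.3% higher.

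Genes of fatty acid synthesis were lower across the pathway, from citrate to the finished chain. Of 21 tested members, 14 fell and none rose (66.7%, against 3.29% over all genes), and the list's median change was -0.77. Acly, which splits citrate into the acetyl-CoA used for synthesis, read 12.17, 11.88 and 11.89 on control 1 to 3 and 10.18, 10.19 and 10.03 on NMU 1 to 3. Acaca, the carboxylase of the committed step, read 11.05, 10.63 and 10.70 against 8.79, 8.75 and 8.66. Fasn, the synthase itself, read 12.34, 12.39 and 12.39 against 10.54, 10.40 and 10.30. In each of these genes the arms were separated by more than 1 log2 unit, with no overlap. The changes were -1.84 (SE 0.252, limma adjusted p = 3.2e-05), -2.06 (SE 0.204, adjusted p = 3.18e-07) and -1.96 (SE 0.206, adjusted p = 7.83e-07).

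The steps beside the core pathway moved with it. Me1, a source of NADPH for synthesis, read 10.94, 10.31 and 10.29 in controls and 8.89, 8.32 and 8.23 after NMU (change -2.03, adjusted p = 0.000259). Elovl6, which extends palmitate, fell by 2.03 (adjusted p = 0.00187). The citrate carrier Slc25a1 fell by 1.07 and the elongase Elovl5 by 0.53, while the other Elovl5 probe set changed by -0.35 without passing. Pnpla3, a lipid droplet acyltransferase and lipase, read 9.55, 8.71 and 8.86 in controls and 5.56, 5.13 and 5.53 after NMU, the largest fall in this list (change -3.63, SE 0.549, adjusted p = 0.000121). The desaturase Scd read 12.41, 10.57 and 11.63 against 11.12, 10.15 and 10.40. Its arms overlapped, and its change of -0.98 (adjusted p = 0.0426) lost its call without control 1 or 3 or NMU 2 or 3 (adjusted p from 0.117 to 0.374), with the muscle score (adjusted p = 0.113) and with the T and NK cell score (adjusted p = 0.278). Fads2 (-0.21), Acacb (-0.21) and Pgd (-0.29) were among the 7 members that did not pass. With the T and NK cell score in the model Slc25a1 did not pass (adjusted p = 0.0518), and without control 1 the list's count was 9.

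Sterol synthesis was lower to a similar degree, with 15 of 19 tested members called lower (78.9%) and none higher (median -0.77). Insig1, which holds the sterol sensor of the SREBP pathway in the endoplasmic reticulum, read 11.60, 11.10 and 10.93 in controls and 9.60, 9.45 and 9.52 after NMU, a change of -1.69 (SE 0.264, adjusted p = 0.000136). Cyp51, the lanosterol demethylase, read 9.22, 9.05 and 9.19 against 8.28, 8.18 and 8.15 (change -0.95, adjusted p = 0.000261). Nsdhl (-0.93) and Msmo1 (-0.88), which act just after Cyp51, fell as well, and no array of either arm overlapped the other. Sqle, the squalene epoxidase, read 7.82, 7.48 and 7.34 against 6.53, 6.58 and 6.10 (change -1.14). Fdps, which makes farnesyl diphosphate, fell by 1.03 and Lss, the lanosterol synthase, by 0.77. Dhcr7 (-0.51), Stard4 (-0.18), Ebp (-0.14) and Tm7sf2 (-0.01) did not pass. The T and NK cell score left 5 calls in this list, and Sqle, Fdps and Lss were among those lost (adjusted p = 0.0935, 0.123 and 0.0592). Without control 1 or without NMU 3 the count was 9.

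Their regulators fell more unevenly. Srebf1, the main SREBP of fatty acid synthesis, read 10.05, 10.23 and 10.29 in controls and 9.02, 8.85 and 9.01 after NMU (change -1.23, SE 0.149, adjusted p = 4.33e-06). Mlxipl, the carbohydrate-sensing ChREBP, read 7.58, 7.001 and 7.29 against 5.14, 6.20 and 6.04 (change -1.50, adjusted p = 0.00213). Pparg, the nuclear receptor that defines adipocytes, read 9.51, 9.57 and 9.54 against 8.34, 8.64 and 8.77 (change -0.96, adjusted p = 0.00197). All 3 were separated between the arms, with NMU 1 the lowest array for Mlxipl and Pparg. Cebpa, its partner in adipocytes, fell by 0.76, while Cebpd rose by 0.82. The other probe set of Cebpa changed by -0.35 without passing. Cebpd lost its call with the replicate number as a block (adjusted p = 0.0513), with the muscle score (adjusted p = 0.0523) and without control 1 or NMU 1 (adjusted p = 0.0602 and 0.13). Srebf2, the SREBP of sterol synthesis, fell by 0.89 and lost its call with the T and NK cell score (adjusted p = 0.111).

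Some genes of triglyceride assembly were lower, and most lipid storage genes did not pass. Of 24 tested members 6 fell, against 3.29% of all genes, and none rose. Dgat2, which adds the last acyl chain, read 12.42, 12.07 and 12.11 in controls and 10.30, 10.57 and 10.36 after NMU (change -1.79, SE 0.217, adjusted p = 5.3e-06). Agpat2 read 10.86, 10.26 and 10.51 against 8.68, 9.01 and 9.27 (change -1.56, adjusted p = 5.12e-05). G0s2, an inhibitor of the lipase Pnpla2, read 11.61, 11.51 and 11.46 against 9.35, 10.20 and 10.22 (change -1.60, adjusted p = 0.00126). Several other adipocyte genes moved less: Adipoq changed by -0.05, Fabp4 by 0.08, Cd36 by 0.22, Lep by -0.18 and Plin1 by -0.51, and none of them passed. Pparg and Cebpa, which also mark adipocytes, fell, as given above. In the list of 20 tested adipocyte identity genes, Angptl8 and Adrb3 fell and none rose (median -0.05). That list's score did not overlap between the arms. It was 0.115, 0.021 and 0.097 on control 1 to 3, and -0.276, -0.194 and -0.223 on NMU 1 to 3. Angptl8, an insulin-responsive inhibitor of lipoprotein lipase action, had the largest fall of all, from 9.95, 9.27 and 9.83 to 5.58, 5.12 and 5.27 (change -4.36, SE 0.562, adjusted p = 1.94e-05). Adrb3, the adrenergic receptor that drives lipolysis, read 8.18, 8.15 and 8.69 against 6.89, 7.10 and 6.93 (change -1.37, adjusted p = 0.000692).

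**Figure D2:**
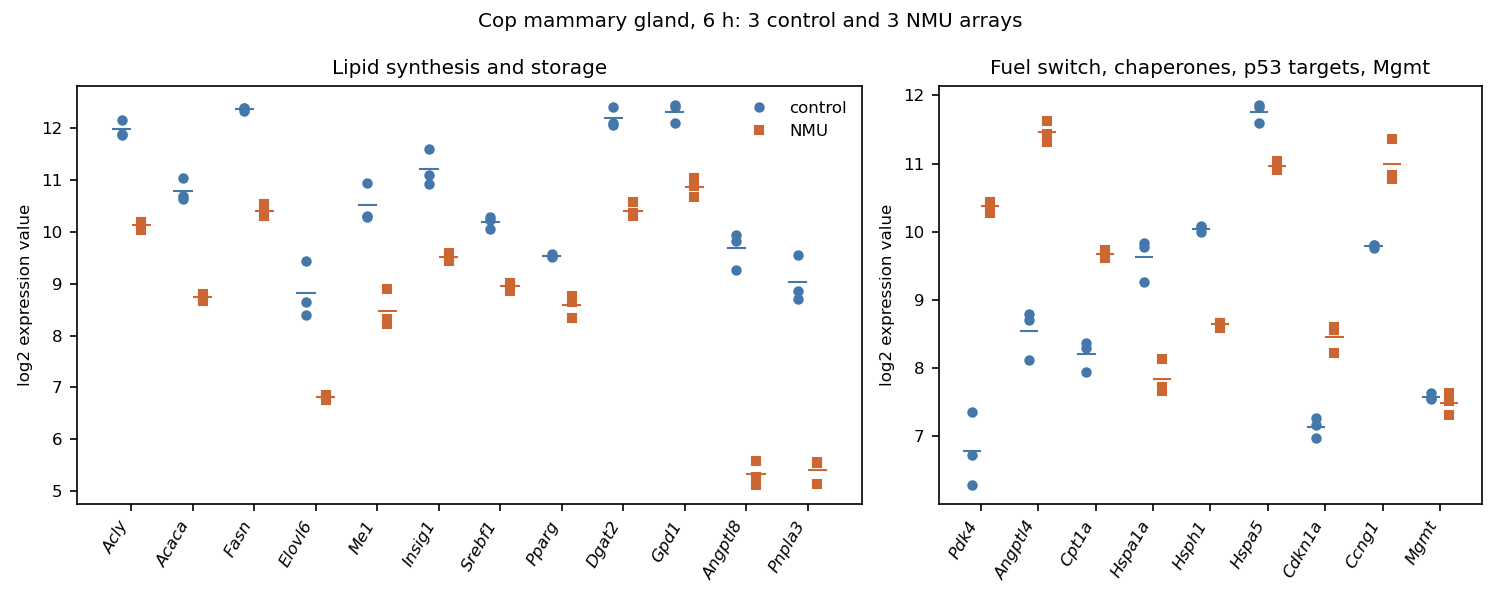
Log2 expression values of named genes on each of the 6 arrays (points: 3 controls and 3 NMU, bars: group means), with lipid genes in one panel and fuel, chaperone, p53 target and repair genes in the other. Fasn, Acaca and Angptl8 lie lower on every NMU array, Pdk4 and Angptl4 higher, and Mgmt overlaps between the arms.

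Genes that turn cells from glucose to fatty acid fuel rose. Pdk4, which switches off pyruvate dehydrogenase, read 6.72, 7.35 and 6.28 in controls and 10.41, 10.44 and 10.27 after NMU, the largest called rise (change 3.59, SE 0.785, 12-fold, adjusted p = 0.00516). Angptl4, an inhibitor of lipoprotein lipase that fasting induces, read 8.79, 8.12 and 8.70 against 11.63, 11.32 and 11.43 (change 2.92, 7.58-fold, adjusted p = 0.00778). Cpt1a, which admits fatty acids to mitochondria, read 8.37, 8.30 and 7.95 against 9.68, 9.73 and 9.61 (change 1.47, adjusted p = 0.00031). Every NMU array stood more than 1 log2 unit above every control in these 3 genes. With the T and NK cell score in the model Pdk4 (2.78, adjusted p = 0.122) and Angptl4 (1.74, adjusted p = 0.23) kept their direction without passing, and Cpt1a passed. In all, 4 of 22 tested members of this list rose (against 4.68% of all genes) and none fell, and with that score 1 rose.

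Of 22 tested genes of glycolysis and glucose uptake 4 fell (18.2%, against 3.29% of all genes), Gpd1 (-1.45), Hk2, Ldhb (-0.46) and Slc16a1 (-0.67). The glucose transporter Slc2a3 was the 1 that rose (0.63, adjusted p = 0.021), against 4.68% of all genes. Slc2a3 lost its call with either score (adjusted p = 0.33 and 0.0647) and without control 1 or 3 or NMU 2 or 3 (adjusted p from 0.0662 to 0.098). Slc16a1, a lactate and pyruvate carrier, lost its call with the replicate block, with either score and without any 1 array but NMU 1 (adjusted p from 0.0546 to 0.234). Hk2, the insulin-regulated hexokinase, read 6.34, 6.02 and 6.08 in controls and 4.92, 4.96 and 4.89 after NMU (change -1.22, adjusted p = 0.00524). Pygl, a glycogen phosphorylase, read 8.98, 8.88 and 9.25 against 7.71, 7.48 and 7.48 (change -1.48, SE 0.163, adjusted p = 1.07e-06). Ppp1r3b, which targets a phosphatase to glycogen, fell by 1.99 and the branching enzyme Gbe1 by 0.99, so that 3 of 15 glycogen genes fell. Ppp1r3b lost its call with either score (adjusted p = 0.0697 with T and NK cells, 0.0568 with muscle) and without control 1 or 2 or NMU 2 or 3 (adjusted p from 0.0598 to 0.0928), and its other probe set changed by -1.04 without passing. Gbe1 lost its call with the T and NK cell score (adjusted p = 0.125), which left 1 glycogen gene called. The insulin-regulated transporter Slc2a4 changed by -0.69 without passing (adjusted p = 0.0942).

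Some clock output genes and glucocorticoid targets rose. Dbp, a clock-driven transcription factor, read 7.65, 7.94 and 7.50 in controls and 8.87, 8.90 and 9.04 after NMU (change 1.24, adjusted p = 0.000191), and the repressor Nr1d1 read 5.25, 6.07 and 4.91 against 6.92, 6.54 and 6.27 (change 1.17, adjusted p = 0.000709). Per3 rose by 0.90 on the probe set used, and its other probe set changed by 0.37 without passing. Bmal1, which Nr1d1 represses, read 6.998, 7.39 and 7.30 against 6.56, 6.31 and 6.27 (change -0.85, adjusted p = 0.0108). Its call was lost without control 2, NMU 2 or NMU 3 (adjusted p from 0.0537 to 0.0565) and with the T and NK cell score (adjusted p = 0.323). Per1 (0.73, adjusted p = 0.0638) and Per2 (0.30, adjusted p = 0.607) did not pass. Among 23 glucocorticoid-induced genes 7 rose, Pdk4 and Angptl4 included, and none fell (30.4%, against 4.68% over all genes). Rasd1, which glucocorticoids induce but which is outside this list, fell by 1.55 (adjusted p = 7.67e-05). The metallothionein Mt2A read 10.77, 10.49 and 10.15 against 11.99, 11.44 and 11.43 (change 1.15, adjusted p = 0.00317), and did not pass with the T and NK cell score (adjusted p = 0.0734). Fkbp5 (-0.26) and Tsc22d3 (0.22), often used as reporters of this receptor, did not pass, and the count of 7 became 11 with the 6 arrays fitted alone and, under the muscle covariate, 4, and it was 3 with the T and NK cell score.

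Structural genes of the extracellular matrix rose together. Of 18 tested collagen genes 11 rose (61.1%) and none fell (median 0.76), of 16 collagen processing genes 8 rose, and of 31 matrix glycoproteins and proteoglycans 11 rose. Each count stands against 4.68% of all genes. Col1a1, a chain of the main fibrillar collagen, read 12.14, 11.61 and 12.18 in controls and 13.35, 13.53 and 13.52 after NMU (change 1.49, SE 0.179, adjusted p = 4.7e-06). Col5a1, a chain of the collagen that nucleates fibrils, read 9.76, 9.42 and 9.52 against 10.80, 11.07 and 11.01 (change 1.40, adjusted p = 5.87e-05). Col1a2 rose by 1.03, Col5a2 by 1.03 and Col3a1 by 0.77. These fibrillar chains rose in company, with no overlap between the arms, while the fibrillar Col2a1 (0.20) did not pass. The basement membrane chains Col4a1 (-0.05) and Col4a2 (0.03) and the fibril-associated Col12a1 (0.08) did not pass either. Of the other chains, Col6a1 (0.83), Col6a3 (0.83), Col18a1 (0.76) and Col16a1 (0.49) rose as well. They lost their calls with the T and NK cell score (adjusted p from 0.0617 to 0.201). Col16a1 also lost it with the muscle score and without control 1 or 2 or NMU 1 or 3 (adjusted p from 0.0542 to 0.118). With the T and NK cell score the collagen count was 5.

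Among the genes that process and crosslink collagen, the median change was 0.58, and 8 of the 16, such as Plod1 (0.20), Serpinh1 (0.25) and P4ha1 (-0.03), did not pass. Lox, the lysyl oxidase that crosslinks collagen and elastin, read 7.78, 7.68 and 7.73 in controls and 10.11, 10.36 and 10.34 after NMU (change 2.54, SE 0.267, 5.81-fold, adjusted p = 7.83e-07). Pcolce, which speeds removal of the procollagen end piece, read 9.46, 9.61 and 9.88 against 10.99, 11.17 and 11.34 (change 1.51, adjusted p = 7.08e-05). Fkbp10, a collagen chaperone, read 7.995, 8.05 and 8.04 against 9.14, 9.47 and 9.50 (change 1.34). All NMU arrays stood more than 1 log2 unit above all controls in these 3 genes. The prolyl hydroxylase P4ha2 rose by 1.20, although its other probe set changed by 0.32 without passing. Loxl2 rose by 1.52 and lost its call with the T and NK cell score (adjusted p = 0.0757), and the count of this list was then 5.

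Among matrix glycoproteins, genes of elastic microfibrils and of fibronectin were prominent. Mfap2, a microfibril component, read 7.31, 7.41 and 7.66 in controls and 9.12, 9.15 and 9.38 after NMU (change 1.76, SE 0.231, adjusted p = 1.51e-05). Fbn1, the fibrillin, read 10.07, 10.45 and 10.56 against 11.38, 11.58 and 11.54 (change 1.14, adjusted p = 3.24e-05). Fn1, fibronectin, read 11.10, 11.34 and 11.38 against 12.35, 12.59 and 12.60 (change 1.24, adjusted p = 5.12e-05). These were separated on every array. Elastin (Eln) rose by 1.39 on the probe set used and by 0.24, without passing, on its other. The collagen-binding proteins Ogn, Sparc and Bgn rose by 1.11, 1.12 and 0.81. Dcn (0.20) and Tnc (0.13) did not pass. The list's count was 17 with the 6 arrays fitted alone and 7 with the T and NK cell score.

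Matrix-degrading enzymes and their inhibitor moved up as well, 10 of 21 (47.6%, against 4.68% of all genes) with none lower. Timp1, an inhibitor of metalloproteinases, read 8.67, 8.46 and 8.79 in controls and 10.67, 9.95 and 10.05 after NMU (change 1.58, adjusted p = 6.72e-06). Ctsk, a collagen-cleaving cathepsin, read 8.25, 8.75 and 8.65 against 9.74, 9.84 and 9.93 (change 1.29, adjusted p = 0.00026). Mmp3, the stromelysin, read 4.21, 3.99 and 3.95 against 4.91, 6.74 and 6.71 (change 2.07, adjusted p = 0.0269), with NMU 1 far below the other NMU arrays. Its call was lost with the replicate block (adjusted p = 0.0981), with the muscle score (adjusted p = 0.0732), with the 6 arrays alone and without any single array other than NMU 1 (adjusted p from 0.0747 to 0.15). The list's count was 5 or 6 without control 1, control 3, NMU 2 or NMU 3, and 4 with the T and NK cell score. Mmp2 (0.14) and Timp2 (0.37) did not pass.

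Markers of fibroblasts were mixed beside these rises. Of 23 tested fibroblast markers 8 rose and 1, Gsn (-0.27), fell, against 4.68% and 3.29% of all genes. The list's score was -0.276, -0.177 and -0.097 in controls and 0.233, 0.313 and 0.305 after NMU. Gsn lost its call with the replicate block (adjusted p = 0.0866), with the T and NK cell score (adjusted p = 0.0872), with the 6 arrays alone and without any 1 array but control 1 (adjusted p from 0.089 to 0.196). The 8 are Col1a1, Col3a1, Lum, Mfap5, Entpd2, Dpp4, Fap and Thy1. Thy1, a surface antigen of fibroblasts and T cells, read 7.91, 7.71 and 7.88 against 9.31, 9.04 and 9.33 (change 1.39, adjusted p = 0.00249) and lost its call with the T and NK cell score (adjusted p = 0.138), as did Lum, Mfap5, Entpd2, Dpp4 and Fap (adjusted p from 0.0718 to 0.375), which left 2. Dpp4 lost it also with the muscle score and without control 1 or NMU 2 (adjusted p from 0.0537 to 0.0862). The receptors Pdgfra (0.02) and Pdgfrb (0.23) and the dermatopontin gene Dpt (0.22) did not pass. Among 22 genes of TGF-beta signalling and myofibroblasts 2 rose, against 4.68% of all genes. None was called higher with either score or without control 1, NMU 2 or NMU 3, and 1 was without control 3 or NMU 1. Tgfb1 (0.05), Ccn2 (0.28), Acta2 (-0.33) and Tagln (-0.43) did not pass. The part of fibroblast number in the matrix result was not tested.

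**Figure D3:**
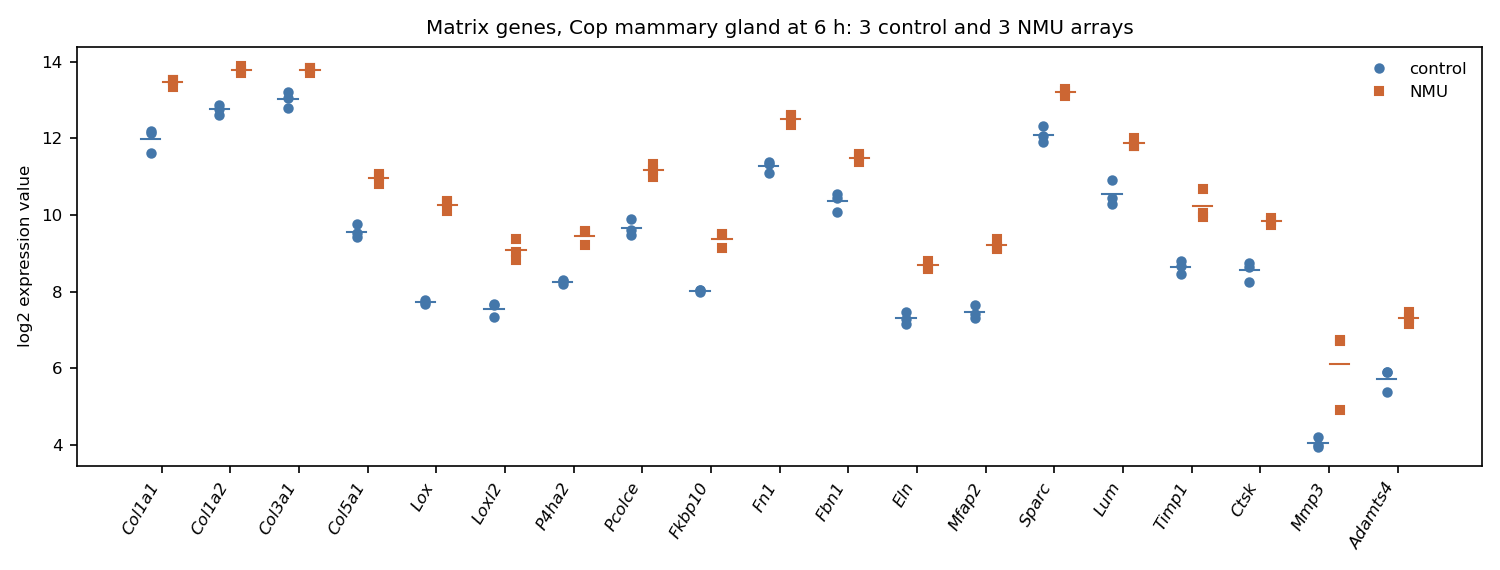
Log2 expression values of 19 matrix genes on the 3 control and 3 NMU arrays of Cop at 6 h, 1 point an array. Lox lies at 7.68 to 7.78 on the controls and at 10.11 to 10.36 on the NMU arrays.

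The matrix response differed between the strains. Over both strains at 6 h, 182 probe sets had a response that differed (0.877% of those tested), 141 with a larger log2 change in Cop (0.68%) and 41 with a smaller one (0.198%). Of the 65 genes in the collagen, processing and glycoprotein lists, 26 were called with a higher response in Cop (8, 7 and 11, against 0.86% of all genes) and none with a lower one. Above 0 lay 61 of these 65 in Cop and 7 in F344 (medians 0.53 and -0.22). For Col1a1 the F344 change was -0.59 (not called, adjusted p = 0.134) and the difference 2.08 (adjusted p = 2.12e-05). For Fn1 and Fbn1 the F344 changes were called in the opposite direction, -0.74 and -0.67, and the differences were 1.98 and 1.80 (adjusted p = 3.38e-05 and 2.12e-05). Lox changed by -0.05 in F344, with a difference of 2.59 (adjusted p = 0.000198). These differences passed whichever of the 12 arrays was left out. The number of probe sets whose response differed was 88 without F344 control 2, 86 without F344 NMU 2, 101 with the T and NK cell score and 432 with the 12 arrays alone, and it was 103, 118, 108 and 119 without Cop control 1, Cop NMU 2, Cop NMU 3 or F344 control 3.

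Most fatty acid and sterol genes changed in the same direction in both strains, and few were called with a different size of response. Of the 40 fatty acid and sterol genes, none lay above 0 in Cop and 2 did in F344 (medians -0.77 and -0.54). The response difference was called in 2 of the 40, Acaca (-1.45, adjusted p = 0.00752) and Fasn (-1.53, adjusted p = 0.00528). Over all genes 0.252% were called with a lower response in Cop. Insig1 fell by the same amount in both strains, with changes of -1.69 in each (difference -0.01, SE 0.373). Srebf1 changed by 0.01 in F344, and its difference was -1.24 (adjusted p = 0.00138). Pygl fell more in Cop (difference -1.18, adjusted p = 0.00605). These 4 called differences passed without any 1 array. For Angptl8 the difference of -3.37 (adjusted p = 0.0361) passed in only 3 of the 12 fits that left out an array. It was lost without Cop control 1 or 3, Cop NMU 2 or 3, F344 control 1, 2 or 3, or F344 NMU 2 or 3 (adjusted p from 0.07 to 0.11).

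**Figure D4:**
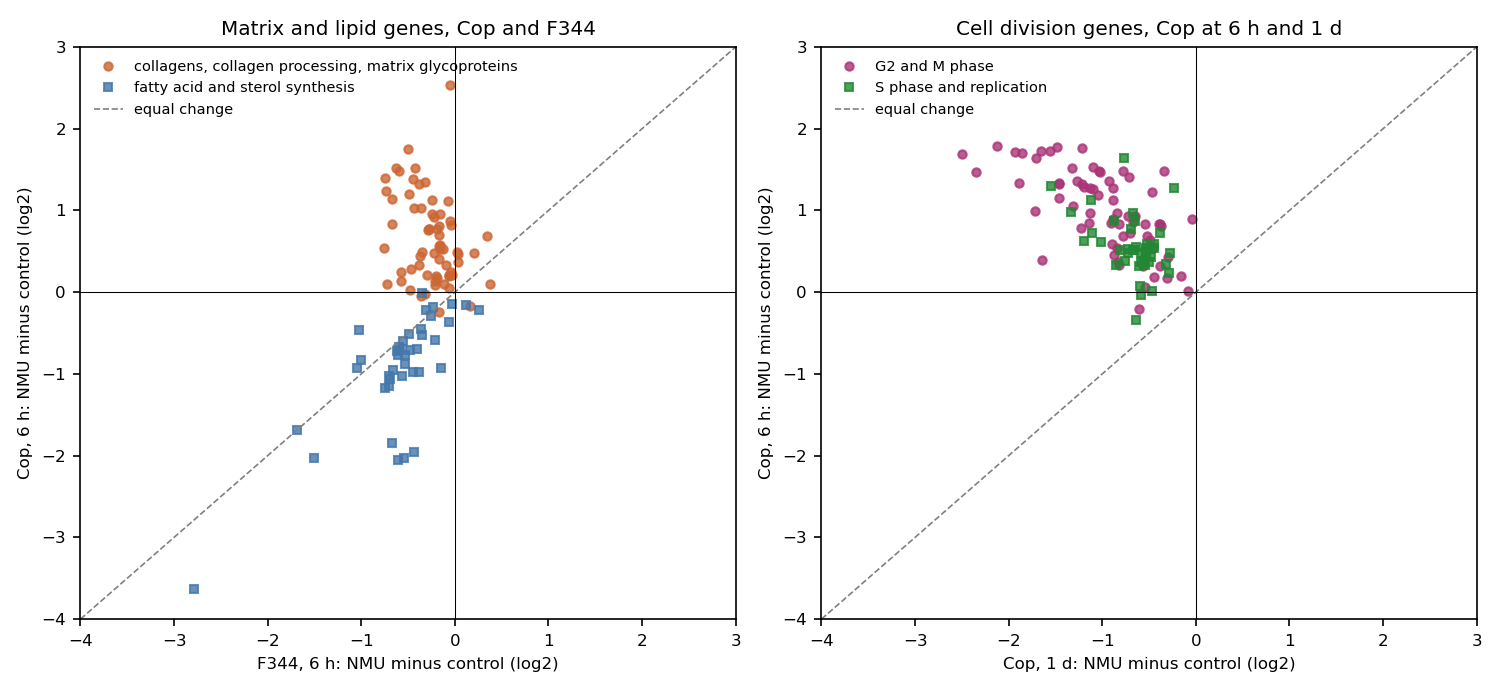
Log2 changes after NMU, 1 point a gene: matrix and lipid genes with the Cop 6 h change on one axis and the F344 6 h change on the other, and cell division genes with the Cop 6 h change against the Cop 1 d change. Of 65 matrix genes 61 lie above 0 in Cop and 7 in F344, and of 70 genes of G2 and M phase 69 lie above 0 at 6 h and none at 1 d.

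Cytosolic and mitochondrial chaperones fell. Of 26 tested heat shock genes 10 fell (38.5%, against 3.29% of all genes) and none rose (median -0.26). Hsph1, a nucleotide exchange factor of Hsp70, read 9.99, 10.06 and 10.08 in controls and 8.59, 8.66 and 8.66 after NMU (change -1.41, SE 0.171, adjusted p = 4.58e-06). Hspa1a, the inducible Hsp70, read 9.27, 9.84 and 9.77 against 8.12, 7.67 and 7.72 (change -1.79, adjusted p = 0.000219). The mitochondrial pair Hspe1 and Hspd1 fell by 0.68 and 0.61. Each of these genes had all NMU arrays below all controls. The Hsp90 cochaperones Ahsa1 and Stip1 fell by 0.69 and 0.63, and the small chaperone Hspb1 by 0.91. Fkbp4 (-0.51, adjusted p = 0.0245) lost its call without any 1 of the 6 arrays (adjusted p from 0.0555 to 0.097) and with either score. Hsp90ab1 (-0.36) and Dnaja1 (-0.54) also lost theirs with either score, Hsp90ab1 (whose other probe set changed by -0.41 without passing) without control 1 or 2 or NMU 2 or 3 (adjusted p from 0.0983 to 0.183) and with the replicate block (adjusted p = 0.0506), and Dnaja1 without control 2 or NMU 3 (adjusted p = 0.0693 and 0.0837). Dnajb1 (-0.25), Hspa4 (0.02), Cryab (0.01), Bag3 (0.18) and the transcription factor Hsf1 (-0.15) did not pass.

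Since these genes moved together, their promoters are shown. Heat shock factor binds inverted repeats of a GAA unit, and the letters GAANNTTC were searched on both strands in the RefSeq windows from 250 bases before to 50 bases after each start (build GRCr8). Of the 22 heat shock genes with a window 11 held a match (50%), and 6 of the 10 that fell, against 5.76% of 9560 tested genes and 8.59% of all 33469 windows of that length. The stretches below are each gene's coding strand, 5′ to 3′, with matches in capitals: Hsph1 at chr12:10427308-10427367 on the plus strand, Hspb1 at chr12:26432378-26432437 on the minus strand, Hspe1 at chr9:64084240-64084299 on the plus strand and Fkbp4 at chr4:163398023-163398082 on the minus strand.
Hsph1: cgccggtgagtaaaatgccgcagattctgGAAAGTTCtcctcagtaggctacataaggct
Hspb1: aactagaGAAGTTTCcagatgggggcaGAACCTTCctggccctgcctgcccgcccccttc
Hspe1: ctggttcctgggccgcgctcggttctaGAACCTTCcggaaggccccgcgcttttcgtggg
Fkbp4: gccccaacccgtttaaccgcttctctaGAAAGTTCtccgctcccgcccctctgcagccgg
The match begins 31 bases before the start in Hsph1 and 60 bases before it in Hspe1. In Hspb1 there are 2. A match describes these letters and is no evidence of binding.

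The fall of heat shock genes differed from F344 in 4 of the 26 genes, all lower in Cop, against 0.252% of all genes. For Hspa1a the F344 change was 0.24, the difference -2.03 (adjusted p = 0.01) and passed without any 1 array. For Hsph1 the difference of -1.11 (adjusted p = 0.016) was lost with the replicate block and without F344 control 3 or F344 NMU 1 (adjusted p = 0.0525 and 0.0522). Ahsa1 (-0.66, adjusted p = 0.0197) and Hspe1 (-0.66, adjusted p = 0.02) were called as well. Both lost that call with either score and without F344 control 2, F344 control 3 or F344 NMU 2, Ahsa1 also without Cop control 3 or Cop NMU 2 and Hspe1 also without Cop control 1, Cop NMU 3 or F344 NMU 3 (adjusted p from 0.0538 to 0.0823). At 1 d in Cop, Hspa1a changed by 0.62, and the 6 h response was lower by 2.40 (adjusted p = 0.000969).

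Chaperones of the endoplasmic reticulum were lower too, 9 of 25 (against 3.29% of all genes) with none higher (median -0.22). Hspa5, the lumenal Hsp70, read 11.60, 11.86 and 11.83 in controls and 11.03, 10.91 and 10.94 after NMU (change -0.81, SE 0.12, adjusted p = 7.05e-05). The disulfide isomerases Pdia4 and Pdia6 fell by 0.70 and 0.37. Hsp90b1 (-0.62) and Creld2 (-0.92) fell and lost their calls with the T and NK cell score (adjusted p = 0.0708 and 0.194). The genes of the stress sensors' transcription factors did not pass: Xbp1 changed by -0.16, Atf4 by -0.04 and Ddit3 by -0.13. The list's count was 5 without control 1 or without NMU 1, and 4 with the T and NK cell score.

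In sterol genes, the SREBP element core TCACNCCAC was found in none of the 17 fatty acid and 15 sterol promoters with a window (1.11% of tested genes), which says only that these letters are not there. The CCAAT box, where the SREBP partner NF-Y binds, was found in 11 of the 17 (64.7%) and 12 of the 15 (80%), against 37.6% of tested genes. The Insig1 window is shown because that gene fell alike in both strains, at chr4:8057933-8057992 on the minus strand, with the reverse complement of the CCAAT box in capitals.
Insig1: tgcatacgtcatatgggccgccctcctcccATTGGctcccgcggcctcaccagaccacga
The match begins 193 bases before the start.

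Targets of the DNA damage factor p53 rose, 12 of 36 with none lower (33.3%, against 4.68% of all genes). Cdkn1a, the cyclin-dependent kinase inhibitor, read 7.26, 7.16 and 6.97 in controls and 8.61, 8.22 and 8.55 after NMU (change 1.33, SE 0.259, adjusted p = 0.00147). Ccng1, a cyclin that p53 induces, read 9.80, 9.81 and 9.77 against 11.36, 10.77 and 10.83 (change 1.20, adjusted p = 0.000107). Ephx1, an epoxide hydrolase, read 8.95, 9.14 and 8.70 against 10.27, 10.06 and 10.06 (change 1.20, adjusted p = 0.000366). Arms were apart in all 3, and in Cdkn1a and Ephx1 the rise was also called in F344 (1.45 and 0.91) with differences of -0.13 and 0.29 that did not pass. Mdm2, the ubiquitin ligase of p53, read 8.58, 8.41 and 8.22 against 9.71, 8.71 and 8.67 (change 0.63, adjusted p = 0.0438), and Gdf15, a stress cytokine, read 4.87, 4.81 and 4.88 against 7.41, 6.07 and 4.86 (change 1.26, adjusted p = 0.031). In both NMU 1 was the highest array, and for Gdf15 NMU 3 lay within the controls. Both lost their calls without NMU 1 and without any 1 control (Gdf15 also without NMU 2), with adjusted p from 0.066 to 0.392 for Mdm2 and from 0.0733 to 0.276 for Gdf15. The list's count was 5, 7 and 5 without control 1, 2 or 3, and 5 and 6 without NMU 1 or 2.

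Cgref1, a p53 target linked to growth control, stood apart from that group. It read 6.13, 5.81 and 6.18 in controls and 8.19, 8.35 and 8.66 after NMU (change 2.36, SE 0.27, adjusted p = 1.81e-06). In F344 it changed by -0.60 without passing, and the difference of 2.96 (adjusted p = 3.6e-05) was the largest in that direction among genes with a symbol. The difference between the 6 h and 1 d responses was 2.64 (adjusted p = 0.000122). Both passed without any 1 array.

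Repair of alkylated bases showed no call in 19 tested genes (limma; at an unadjusted p under 0.05 3 were higher and none lower; median 0.01). Mgmt read 7.56, 7.54 and 7.63 in controls and 7.52, 7.30 and 7.63 after NMU, with overlapping arms (change -0.10, SE 0.142, adjusted p = 0.801). Among 22 genes of mismatch and break repair, Fancd2 (1.09), Rad54l (0.77) and the histone H2ax (0.69) rose, and Prkdc, the kinase of end joining, fell by 0.63. Over all genes 4.68% rose and 3.29% fell. All 4 repair genes lost their calls with the T and NK cell score (adjusted p = 0.171 for Fancd2 and for Prkdc, 0.33 for Rad54l and 0.313 for H2ax). H2ax also lost its call without control 1, control 2 or NMU 3 (adjusted p = 0.102, 0.0618 and 0.127). Rad54l lost it with the replicate block (adjusted p = 0.0875), with the muscle score (adjusted p = 0.111) and without control 1 or 2 or NMU 2 or 3 (adjusted p from 0.0701 to 0.219).

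Genes of the cell cycle were higher at 6 h. Of 70 tested genes of G2 and M phase 38 rose (54.3%), none fell and 69 had a change above 0 (median 0.95), and of 41 genes of S phase 14 rose and none fell (median 0.52). Both counts of rises stand against 4.68% of all genes. Esco2, which joins sister chromatids, read 4.02, 4.26 and 4.07 in controls and 5.66, 5.98 and 6.05 after NMU (change 1.78, SE 0.278, adjusted p = 0.00011). Ccne2, the cyclin of S phase entry, read 3.97, 4.04 and 4.10 against 5.20, 5.99 and 5.82 (change 1.64, adjusted p = 0.000218). Fam111a, a protease at replication forks, read 4.66, 5.35 and 5.24 against 6.47, 7.39 and 7.12 (change 1.91, adjusted p = 0.000362). These 3, and the transcription factor Mybl1 (1.96, adjusted p = 6.17e-05), passed under every alternative tried. NMU 1 was the lowest NMU array in Esco2, Ccne2 and Fam111a.

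Many calls in both cell cycle lists were lost when 1 array was left out. The median change then ran from 0.885 to 1.12 for G2 and M phase and from 0.458 to 0.648 for S phase. Aurkb, the kinase of the chromosomal passenger complex, read 5.09, 5.24 and 5.56 in controls and 6.51, 7.07 and 6.92 after NMU (change 1.54, adjusted p = 0.00164). Plk4, the kinase of centriole duplication, read 3.95, 4.45 and 4.39 against 5.90, 6.41 and 5.86 (change 1.80, adjusted p = 0.00149). Espl1, the separase that cuts cohesin, read 4.51, 4.35 and 4.49 against 5.37, 6.03 and 5.63 (change 1.23, adjusted p = 0.00106). All 3 passed without any 1 array and did not pass with the T and NK cell score (adjusted p = 0.0993, 0.0745 and 0.0727). Top2a, the topoisomerase, read 5.74, 6.47 and 6.42 against 7.33, 8.25 and 7.99 (change 1.64, adjusted p = 0.01), and did not pass without control 1 or NMU 2 (adjusted p = 0.0825 and 0.0715) or with that score (adjusted p = 0.254). Cdk1, the mitotic kinase, rose by 1.79 (adjusted p = 0.0263), a call lost with the replicate block (adjusted p = 0.0665), with the T and NK cell score (adjusted p = 0.464) and without any 1 array but NMU 1 (adjusted p from 0.0556 to 0.119). The G2 and M count was 0 with the T and NK cell score, 7 and 14 without NMU 2 or 3, 12, 24 and 22 without control 1, 2 or 3, and 23 with a stricter filter on dim probe sets. The S phase count was 2 with that score, 4 and 6 without control 1 or 2, 2 and 4 without NMU 2 or 3, 9 with quantile normalization and 8 with the stricter filter. The T and NK cell score itself separated the arms, at 0.510 to 0.933 in controls and -1.11 to -0.039 after NMU. Ccnb1 (0.40), Plk1 (0.40), Birc5 (0.38) and Aurka (0.18) did not pass.

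At 1 d, 12 of the 70 G2 and M genes and 10 of the 41 S phase genes fell, against 0.452% of all genes, and none of either list had a change above 0 (0.6% of all genes rose). The 6 h response was called higher than the 1 d response in 53 of the 70 G2 and M genes and in 28 of the 41 S phase genes, against 2.16% of all genes, and lower in none, against 0.878%. In all 70 and all 41 the 6 h change exceeded the 1 d change, the 1 d medians being -0.88 and -0.60. For Cdk1 the changes were 1.79 at 6 h and -2.12 at 1 d, and the difference of 3.91 (adjusted p = 0.00164) passed without any 1 array. For Top2a they were 1.64 and -1.70 (difference 3.34, adjusted p = 0.000718), and for the proliferation antigen Mki67 1.69 and -2.49 (difference 4.19, adjusted p = 0.000494). The 6 h rise of Mki67 (adjusted p = 0.0289) lost its call with the replicate block, with the T and NK cell score and without control 1 or 3 or NMU 2 or 3 (adjusted p from 0.063 to 0.345). In F344 at 6 h the G2 and M median was -0.18. Called higher in Cop were 4 of the 70 responses (against 0.86% of all genes): Aurkb, Cenpm, Espl1 and Kif18b. All 4 lost that call without Cop control 1, Cop control 2, Cop NMU 2, Cop NMU 3, F344 control 2, F344 control 3, F344 NMU 1 or F344 NMU 2, and Espl1 and Aurkb without further arrays (adjusted p from 0.0524 to 0.199).

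The promoters of these genes share letters as well. The cell cycle homology region TTTGAA, searched on both strands of the same windows, was found in 40 of the 62 G2 and M genes with a window (64.5%) and in 20 of the 33 of these that rose, against 11.4% of tested genes and 18.3% of all windows. The CCAAT box was found in 46 of the 62 (74.2%) and in 21 of the 33 that rose (63.6%), against 37.6% of tested genes. For TTTGAA the share among those that rose was 60.6%. Neither motif was thus more frequent among the called genes than in the whole list. Shown are Cdk1 at chr20:19265233-19265292 on the plus strand, Top2a at chr10:84473094-84473153 on the minus strand, where the match is the reverse complement, Espl1 at chr7:135302604-135302663 on the plus strand and Prc1, a crosslinker of the central spindle, at chr1:143659421-143659480 on the plus strand, with the match in capitals.
Cdk1: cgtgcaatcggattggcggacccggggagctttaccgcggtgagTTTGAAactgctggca
Top2a: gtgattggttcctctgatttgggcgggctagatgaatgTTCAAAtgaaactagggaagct
Espl1: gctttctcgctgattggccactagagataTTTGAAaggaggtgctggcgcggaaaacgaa
Prc1: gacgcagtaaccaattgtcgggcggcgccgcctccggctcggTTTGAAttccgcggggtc
The match begins 16 bases before the start in Cdk1, 22 in Top2a, 83 in Espl1 and 18 in Prc1. Prc1 rose by 1.72 (adjusted p = 0.0195), a call lost without control 1 or 3, without NMU 2 or 3 (adjusted p from 0.0509 to 0.111) and with the T and NK cell score (adjusted p = 0.441).

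Leukocyte genes moved in opposite directions by lineage. Of 28 tested T and NK cell markers 15 fell, against 3.29% of all genes, and none rose (median -1.60). Bcl11b, a T cell transcription factor, read 7.20, 7.39 and 7.78 in controls and 6.21, 4.63 and 4.61 after NMU (change -2.31, adjusted p = 0.00258), and the adaptor Skap1 read 8.26, 7.53 and 8.04 against 6.60, 5.21 and 5.27 (change -2.25, adjusted p = 0.00585). NMU 1 lay between the controls and the other NMU arrays in both. Both lost their calls with the T and NK cell score (adjusted p = 0.15 and 0.226), which is built from such markers and left none of the 15, and the other Bcl11b probe set changed by -0.81 without passing. The defining chains Cd3d (-2.14, adjusted p = 0.054), Cd3e (-2.11, adjusted p = 0.081) and Cd3g (-2.30, adjusted p = 0.097) did not pass. The count of 15 was 4, 8, 2 and 3 without control 1, control 3, NMU 2 or NMU 3, 23 without NMU 1, 5 with the muscle score and 8 without the filter. None of 15 B and plasma cell markers passed (median -0.87; at an unadjusted p under 0.05 none was higher and 3 were lower).

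Myeloid genes were higher. S100a8, a calcium-binding protein of neutrophils, read 4.18, 3.796 and 4.33 in controls and 7.38, 6.00 and 5.98 after NMU (change 2.35, SE 0.258, adjusted p = 1.02e-06), and its partner S100a9 read 4.88, 4.22 and 5.17 against 8.42, 7.04 and 6.85 (change 2.68, adjusted p = 1.71e-05). NMU 1 was the highest array for both, and both were called in F344 as well (2.04 and 2.36). They are the 2 of 5 tested neutrophil markers that rose. Among 24 macrophage markers 6 rose (25%, against 4.68% of all genes), Cd68 from 8.79, 8.96 and 8.74 to 9.63, 9.54 and 9.66 (change 0.78, adjusted p = 0.00737), while Csf1r (0.29) and Adgre1 (0.22) did not pass. The macrophage count was 13 with the 6 arrays alone, 3 with the replicate block, 2 with the muscle score or without the filter, and 1 or 2 without control 1, control 3, NMU 2 or NMU 3. The chemokine Ccl6 read 9.99, 10.49 and 10.16 against 11.64, 11.85 and 11.67 (change 1.51, adjusted p = 0.000344). The other 4 called cytokine genes, among them Ccl2 (1.61) and Ccl3 (0.74), lost their calls with the replicate block, which left 1. Without any 1 control or without NMU 1 the count was 1 as well, Ccl2 reaching adjusted p from 0.091 to 0.251 and Ccl3 from 0.0965 to 0.409. Without NMU 2 it was 3, with Ccl2 lost (adjusted p = 0.053), and with the T and NK cell score it was 11.

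Part of the interferon programme was up. Of 33 tested interferon-stimulated genes 6 rose (18.2%, against 4.68% of all genes) and none fell. Cxcl10, an attractant of activated T cells, read 5.71, 5.65 and 5.42 in controls and 7.15, 8.10 and 8.19 after NMU (change 2.22, SE 0.4, adjusted p = 0.000685). Cxcl11 read 4.54, 4.54 and 4.01 against 5.83, 5.64 and 5.62 (change 1.34, adjusted p = 0.00327), and the antiviral enzyme Rsad2 read 6.55, 6.16 and 6.39 against 7.32, 8.37 and 8.28 (change 1.62, adjusted p = 0.000613). All were apart between the arms. At 1 d Cxcl10 was again called higher (2.30), with a difference between the times of -0.08. Mx1 (-0.34), Irf7 (0.50) and Stat2 (-0.22) did not pass at 6 h. With the T and NK cell score the count was 11.

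Heme and iron genes changed in both directions. Hbb, beta globin, read 9.64, 9.94 and 9.51 in controls and 12.16, 11.55 and 11.57 after NMU (change 2.06, adjusted p = 6.57e-05), and Alas2, the first enzyme of heme synthesis in red cells, read 4.55, 4.77 and 4.27 against 6.41, 5.90 and 5.56 (change 1.43, adjusted p = 0.0013). Hmox1, which degrades heme, read 7.85, 7.83 and 7.44 against 9.73, 9.28 and 9.31 (change 1.73, adjusted p = 0.000114). NMU 1 was the highest array for all 3. The iron exporter Slc40a1 rose by 0.71, while its other probe sets changed by 0.60 and 0.75 without passing, and lost its call with the T and NK cell score (adjusted p = 0.158), as the list's 5 rises became 3. Tfrc, the transferrin receptor, fell by 1.06 (adjusted p = 0.00546), a call lost without control 2 (adjusted p = 0.0534). The 6 h response of Hbb exceeded that at 1 d by 3.001 (adjusted p = 0.000118).

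Among genes outside these lists, several with a large rise in Cop had little change in F344. C1qtnf6, a secreted C1q and TNF related protein, read 7.50, 7.10 and 7.43 in controls and 9.25, 9.42 and 9.38 after NMU (change 2.01, SE 0.207, adjusted p = 4.92e-07), with a strain difference of 2.41 (adjusted p = 2.12e-05). Meg3, an imprinted long noncoding RNA, read 5.13, 4.99 and 5.13 against 6.84, 7.31 and 7.23 (change 2.05, difference 2.35). Cercam read 6.96, 6.97 and 7.01 against 8.51, 8.73 and 8.84 (change 1.71, difference 2.27). Their F344 changes were -0.41, -0.30 and -0.55, none called. Slc22a3, an organic cation transporter, went the other way, from 9.78, 9.45 and 9.82 to 7.69, 8.28 and 8.18 (change -1.63, difference -1.82). Rasd1, a Ras-like protein that glucocorticoids induce, read 9.49, 9.57 and 9.80 against 8.35, 7.86 and 8.02 (change -1.55, difference -1.60). All 5 differences passed without any 1 array. The carbonyl reductase Cbr3 read 10.65, 10.60 and 10.80 against 8.92, 8.90 and 9.17 (change -1.68, adjusted p = 0.000273), without a called strain difference.

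A few large changes were carried by NMU 2 and 3. Clca1, a secreted mucus-associated protein, read 13.18, 13.14 and 13.04 in controls and 12.24, 9.03 and 9.003 after NMU (change -3.03, adjusted p = 0.0338). It lost its call without any 1 array but NMU 1 (adjusted p from 0.0778 to 0.186) and with either score. The secreted inhibitor Spink8 read 8.14, 9.29 and 7.65 against 6.78, 4.43 and 4.42 (change -3.15, adjusted p = 0.00197), and lost its call with the 6 arrays alone and with the T and NK cell score (adjusted p = 0.0921). Rnase1l2 read 4.67, 4.66 and 4.41 against 5.44, 7.42 and 7.59 (change 2.23, adjusted p = 0.00509), and lost its call without NMU 3 (adjusted p = 0.0529) and with the 6 arrays alone. In all 3 genes NMU 1 lay between the controls and the other NMU arrays.

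Milk and hormone receptor genes were examined as epithelial readouts. Csn2, beta casein, changed by -4.26 (adjusted p = 0.17) without passing, and Csn3 by -2.24. In the milk gene list 2 fell (against 3.29% of all genes), Mfge8 (-0.78, adjusted p = 0.0248) and Slc34a2 (-1.77, adjusted p = 0.0493), and none rose. Both lost their calls with either score and without control 2, NMU 2 or NMU 3 (adjusted p from 0.0774 to 0.386). Slc34a2 lost its call also with the replicate block and without control 1 or 3 (adjusted p from 0.0538 to 0.084). The milk gene score was 0.552, 1.08 and 0.035 in controls and 0.318, -1.10 and -1.09 after NMU, so it overlapped through NMU 1. Esr1 (-0.28), Pgr (0.96, adjusted p = 0.557) and Prlr (0.02) did not pass. None of 29 tested genes of oxidative phosphorylation passed (median -0.10; at an unadjusted p under 0.05 none was higher and 5 were lower).

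Against the other NMU responses of the study, the one in Cop at 6 h had the most calls of the 3 compared here. F344 at 6 h gave 129 (0.622%), with 78 higher (0.376%) and 51 lower (0.246%). Cop at 1 d gave 158 (0.761%), with 85 higher (0.41%) and 73 lower (0.352%). Called in both Cop and F344 at 6 h were 59 probe sets, 4.33% of the Cop calls and 45.7% of the F344 calls, and 56 of them had the same sign. Called in Cop at both times were 47, 3.45% of the 6 h calls and 29.7% of the 1 d calls, and 24 had the same sign. Between the times 501 probe sets differed in response (2.41%), 340 higher at 6 h (1.64%) and 161 lower (0.776%), and 306 differed without Cop 6 h NMU 2 and 309 without Cop 1 d control 2.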

How the data were processed

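The deposited table holds the authors' expression values on a log2 scale for 31099 probe sets on 36 arrays. Per the labels, RNA was extracted with Qiagen RNeasy Maxi columns and 1 ug of it was turned into biotinylated cRNA. Per the submitters' processing notes the software was GCOS, and the sources used here do not give the summarization or scaling of the probes. Array medians were close, so the values were used as deposited, and arrays have no read depth: their number limits the precision.

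Of the probe sets, 57 are controls, 20832 carry 1 gene symbol, 436 several and 9831 none, and 68 of the single-symbol sets have an Entrez identifier absent from the gene table. Probe sets above the 40th percentile of their own array on at least 3 arrays were tested (20749), and the brightest probe set on average stood for its gene (11509 genes). With limma 3.58.1 (R 4.3.3), 1 model with a mean per group (12) was fitted over the 36 arrays (moderated two-sided test with mean-variance trend and robust prior), adjusted by Benjamini-Hochberg within each contrast and called at an adjusted p under 0.05. The code was tested on simulated data.

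The 6 arrays, the 49 gene lists (1444 entries, 1277 matched to a probe set) and the tests were chosen with earlier results of these data known. Named are the 20 largest rises and 20 largest falls whose arms do not overlap, from every list with at least 3 called members or of cell type markers the 6 (at most) with the smallest p, the 8 largest differences of each sign between responses, Mgmt, Cdkn1a, Trp53, Per1, Per2, Fkbp5, Esr1, Pgr and Prlr, and members that complete a role. The labels number the replicates without saying what a number stands for. In Cop, deviations of same-numbered arrays from their group means correlated at 6 h (0.114, 0.142 and 0.435) and at 1 d (0.202, 0.424 and 0.315), so a fit with the pairs as a block is given where it changes a call. Differently numbered arrays gave -0.324 to 0.16 at 6 h and -0.281 to -0.0791 at 1 d. At 6 h the highest of them thus exceeded the values of numbers 1 and 2, and whether the numbers mark true pairs is not known. In F344 at 6 h the correlations of same-numbered arrays were -0.014, 0.35 and 0.507, and those of differently numbered arrays -0.497 to 0.334.

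Other alternatives were no filter, a filter at the 60th percentile, dim values floored at the 20th, quantile normalization, limma without trend and robust prior, the compared arrays alone, a marker score as a covariate, and leaving out each array. Promoters are RefSeq windows of build GRCr8.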

Additional observations from a re-analysis of the deposited data

Results flagged for a closer look

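Each value here is a tested difference between responses to NMU, on the log2 scale. Responses at 6 h were larger in Cop than in F344 for Cgref1 (2.96), Aldh1l2 (2.88), Lox (2.59), Cdh22 (2.45), C1qtnf6 (2.41), Calml4 (2.36), Meg3 (2.35) and Cercam (2.27). Of these, Cdh22 lost its call without Cop control 1, F344 control 3 or F344 NMU 2 (adjusted p from 0.0588 to 0.0712), and the others passed without any 1 array. They were lower in Cop for Angptl8 (-3.37), Hspa1a (-2.03), Slc22a3 (-1.82), Tmeff1 (-1.63), Rasd1 (-1.60), Adrb3 (-1.60), Fasn (-1.53) and Acaca (-1.45). Tmeff1 lost its call with the replicate block and without Cop control 1, Cop NMU 1, F344 control 2 or F344 NMU 2 (adjusted p from 0.0531 to 0.0746). Adrb3 lost its call with the block and without Cop control 3, Cop NMU 3, F344 control 2 or F344 NMU 2 (adjusted p from 0.0541 to 0.0762).

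Within Cop, responses at 6 h exceeded those at 1 d for Mki67 (4.19), Cdk1 (3.91), Racgap1 (3.82), Nusap1 (3.65), Ccna2 (3.56), Ect2 (3.38), Top2a (3.34) and Pclaf (3.34), all genes of cell division. Ect2 lost its call without Cop 6 h control 1, Cop 6 h NMU 2 or Cop 1 d control 2 (adjusted p from 0.0562 to 0.0684) and with the T and NK cell score. Responses at 6 h were lower for Cyp2e1 (-6.25), Mmp11 (-3.99), Angptl8 (-3.75), Hspa1a (-2.40), Dpyd (-2.19), Aox1 (-1.95), Cxcl13 (-1.88) and Bin2a (-1.85). For Cyp2e1 the 6 h change was -0.52, not called and with overlapping arms, and the 1 d change was a called rise of 5.73. For Mmp11 they were -1.33, also not called and overlapping, and a called rise of 2.66. Cxcl13 lost its call without Cop 6 h control 2, NMU 2 or NMU 3 or Cop 1 d control 1 or NMU 2 (adjusted p from 0.052 to 0.0757), with the block and with the T and NK cell score.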

How the results depend on the processing

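The number of probe sets called higher in Cop at 6 h (777) became 1176 when only the 6 arrays were fitted, 504 and 393 with the muscle or the T and NK cell score, and 375 to 631 with 1 array left out. The number lower (587) was 965, 343 and 273, and 279 to 527. Strain differences (182) numbered 432 with the compared arrays alone and 101 with the T and NK cell score, and 86 to 196 with 1 array left out. Differences between 6 h and 1 d (501) numbered 306 to 497. With the replicate block the numbers were 704 higher and 606 lower, 146 and 403, and 83.5% of the 6 h calls were kept. Quantile normalization gave 763 higher and 715 lower. Among 281 genes examined and called at 6 h, 135 passed whichever array was left out and 87 passed every alternative. Signs turned in 5, all T cell markers with the T and NK cell score built from them: Cd5 (0.165), Sit1 (0.176), Cd8a (0.0338), Lck (0.109) and Zap70 (0.00364). That score and the muscle score differ between the arms themselves, and the cause of the lost calls was not tested. Each arm has 3 arrays, dim probe sets compress changes, and the sources used here give no time of day and no batch.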
